A study of Homo sapiens with 18 samples.

Results

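Cholesterol synthesis, its control by the sterol-sensing transcription factors called SREBPs, and cholesterol uptake and transport are described here by 30 genes in 2 human breast cancer cell lines. A gene was taken when its row in both deposited tables carried a name from a list of 8 mevalonate pathway enzymes, 12 enzymes that turn the product into cholesterol, 5 genes of SREBP control and 5 genes of sterol uptake, transport and storage. All 30 names were found once in each table, out of 14768 genes listed for T47D and 14308 for MDA-MB-231. Both lines carried an introduced G0S2 gene switched on by doxycycline. G0S2 is known as an inhibitor of the fat-cell lipase that starts triglyceride breakdown. T47D is an established estrogen receptor positive line, and MDA-MB-231 an established estrogen receptor negative one. In each line the induced groups had 0.5 ug/ml doxycycline for 3 days or for 15 days, and the control group had none. Each of the 6 groups had 3 libraries, 18 in all, made from total RNA of whole cultures. Induced G0S2, the drug and its action through the vector cannot be told apart, because cells given doxycycline without the introduced gene were not analysed here. Each line had a single control group, which served for both times. The labels give no untreated culture for day 3 or day 15. Time in culture therefore cannot be told apart from time on doxycycline.

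Cells build cholesterol from acetyl-CoA through mevalonate and the isoprenoid farnesyl diphosphate, which is joined into squalene, closed into the first sterol, lanosterol, and trimmed in many steps to cholesterol. When sterols in the endoplasmic reticulum are low, SCAP carries the SREBP proteins (made from SREBF1 and SREBF2) to the Golgi, where they are cut and released to the nucleus to switch on genes of synthesis and uptake. When sterols are high, the INSIG proteins hold SCAP back, and oxidized sterols act through the LXR receptors, whose known targets include ABCA1, MYLIP and SREBF1.

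The introduced gene checked the labels. In MDA-MB-231, day 3 libraries held 1429 to 1506 CPM of G0S2 and day 15 libraries 1103 to 1294, against 25.0 to 25.5 in controls. In T47D, day 3 libraries held 844 to 883 CPM and day 15 libraries 736 to 993, against 0.277 to 0.900 in controls. CPM (reads scaled to library size) comes here from whole reads recovered from the deposited log2 values. Depth was 40.1 to 51.0 M reads per T47D library and 37.0 to 52.4 M per MDA-MB-231 library. T47D libraries listed all 10 T47D identity markers, with ESR1 (the estrogen receptor) at 245 to 280 CPM, although TFF1 was at 1.38 to 4.08 CPM. MDA-MB-231 libraries listed all 8 of their markers, with vimentin at 2248 to 2481 CPM but SPARC at 0.347 to 0.605 CPM. ESR1, PGR, FOXA1 and TFF1 were not among the genes listed for MDA-MB-231. One library stood apart: T47D day 15 replicate 2 differed from its group mates by a chi-square of 14.7 and 23.8 per gene, against 1.74 to 5.95 in the other pairs of one group. Day 15 calls and counts that rest on replicate 2 are also given without it. Replicate 2 also enters the shared spread behind the T47D day 3 test and the day 3 difference between lines. No fit of these left it out alone. The sample labels do not tell whether libraries of one group were grown as separate cultures. The p-values therefore reflect library-to-library spread, which may be technical. In bulk RNA, fewer cells that express a gene and less of its RNA per cell cannot be told apart.

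Induction for 3 days in MDA-MB-231 came with higher RNA of 10 cholesterol genes, with at least 1 in each of the 4 roles. INSIG1, SREBF1, HMGCS1, FDPS, IDI1, LSS, STARD4, MSMO1, FDFT1 and DHCR7 rose, with log2 folds between 0.12 and 0.31. These 10 of 30 members were called higher, where 0.895% of all genes were, and 0 were called lower, where 0.874% of all genes were. A gene was called at an adjusted p under 0.05 over all genes in limma. The median log2 fold was 0.10 over the members and 0.0016 over all genes, and 29 of 30 members had a positive value, as did 51.0% of all genes. In 17 members the 3 day 3 libraries all lay above the 3 control libraries, and in none did they all lie below, against 10.3% and 10.1% of all genes. Without limma's trend of variance with expression level, INSIG1, HMGCS1 and IDI1 were the 3 that stayed called. In that fit 0.412% of all genes were called in either direction. Low genes are rarely called at such small folds, so a fit on genes with a mean log2 CPM of 1 or more was also made. It called the same 10 members higher, where 2.14% of its genes were called in either direction, against 1.77% of all genes in the main fit.

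At day 15 in MDA-MB-231, 7 of these 10 genes were not called against control. Against control, HMGCS1 and IDI1 were called higher and SREBF1 and ABCA1 lower. These counts, 2 of 30 in each direction, lie near the background of 3.42% of all genes called higher and 4.77% called lower. ABCA1 alone stayed called without the variance trend, where 1.46% of all genes were called in either direction. Against day 3, 13 of 30 members fell at day 15, where 2.86% of all genes did, and 0 rose, where 2.47% of all genes did. Without the variance trend, SREBF1, INSIG1 and ABCA1 stayed called in that comparison (3 of 30), where 0.203% of all genes were called in either direction. The median log2 difference between day 15 and day 3 was -0.10 over the members and -0.0068 over all genes. In 19 members the day 15 libraries all lay below the day 3 libraries, against 13.01% of all genes. The comparisons within a line share libraries, so a high day 3 group raises one and lowers the other. Summed marker levels also stood apart from control in MDA-MB-231 at both times, and their part in these results was not tested. Over the 8 MDA-MB-231 identity markers, day 3 libraries summed to 7351 to 7361 CPM and day 15 libraries to 7604 to 7688, against 7363 to 7398 CPM in control. Over the 6 T47D identity markers listed there (of 10), day 3 libraries summed to 875 to 884.5 CPM and day 15 libraries to 817 to 847, against 908 to 968 CPM in control. Over 4 fibroblast markers (of 6; COL3A1 and DCN were not listed), the sum was 13.55 to 14.1 CPM at day 15, against 15.6 to 16.7 CPM in control. Over PECAM1 and KDR, the endothelial markers listed (2 of 4; CDH5 and VWF were not), the sum was 9.16 to 9.21 CPM at day 15, against 9.62 to 10.3 CPM in control. Both of these sums overlapped control at day 3.

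**Figure D1:**
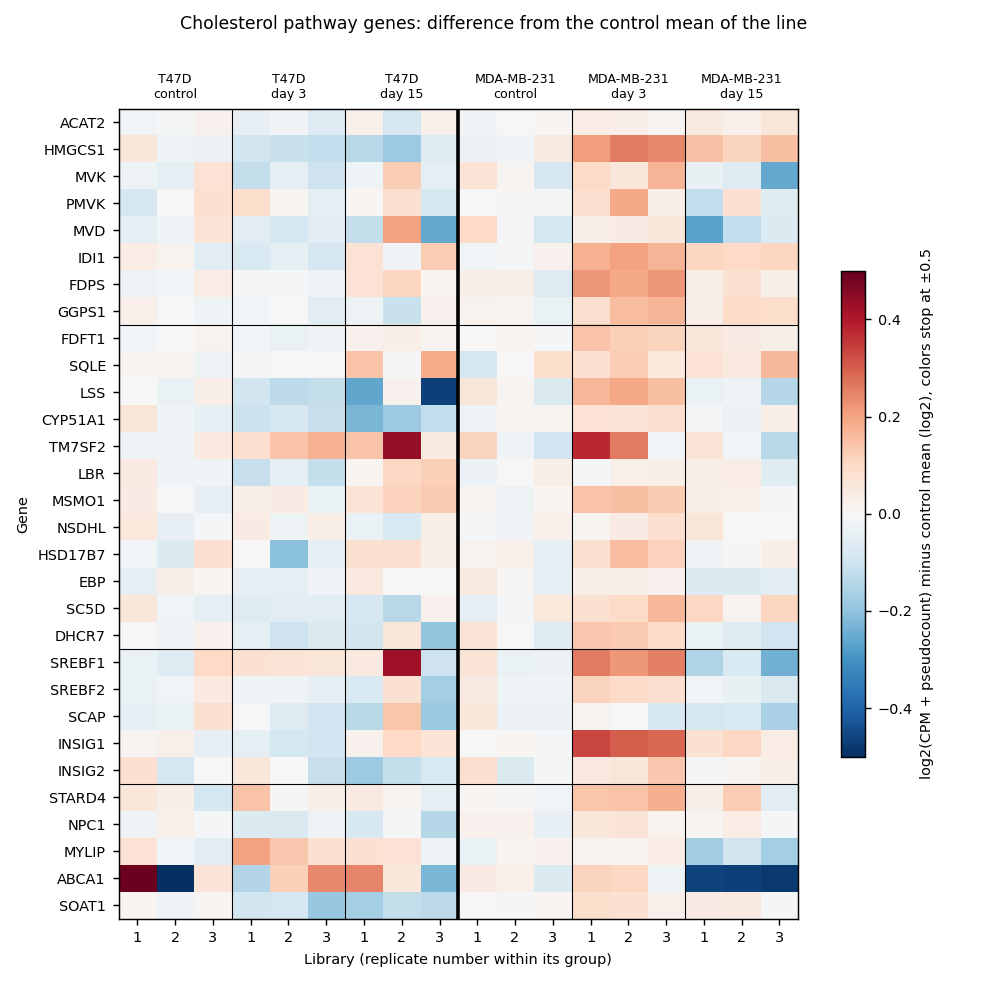
Difference of each library from the control mean of its line, on the log2 scale of CPM plus a pseudocount, for the 30 genes (rows, in pathway order with lines between the 4 roles) and 18 libraries (columns, by line and group). The 3 MDA-MB-231 day 3 libraries are above 0 in most rows, and ABCA1 is low in the 3 MDA-MB-231 day 15 libraries, with colors that stop at ±0.5.

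Among the mevalonate enzymes, HMGCS1, which joins acetoacetyl-CoA and acetyl-CoA, had 103, 104 and 108.5 CPM in control libraries, 121.5, 126 and 124 CPM at day 3 and 116, 113.5 and 117 CPM at day 15 in MDA-MB-231. All 3 day 3 libraries were above all controls, and the day 15 libraries lay between the other groups with no overlap. Against control its day 3 rise was a log2 fold of 0.24 (SE 0.0292, adjusted p = 7.04e-06) and its day 15 rise 0.14 (SE 0.0292, adjusted p = 0.00388). HMGCS1 was lower at day 15 than at day 3 (log2 difference -0.10, SE 0.0292, adjusted p = 0.0426). IDI1, the isomerase of the isoprenoid building block, had 226, 226 and 231 CPM in control libraries, 256.5, 262 and 256 CPM at day 3 and 245, 244 and 245 CPM at day 15. It showed the same order of groups without overlap, with log2 folds against control of 0.18 (SE 0.0235, adjusted p = 1.40e-05) at day 3 and, later, 0.11 (SE 0.0235, adjusted p = 0.00543), while day 15 against day 3 was not called (-0.08, adjusted p = 0.0537). FDPS, which makes farnesyl diphosphate, had 213, 212 and 198 CPM in control libraries, 241, 237 and 241.5 CPM at day 3 and 212, 219 and 212 CPM at day 15. Its day 3 libraries were above all others, and day 15 and control overlapped. FDPS rose at day 3 (log2 fold 0.21, SE 0.0274, adjusted p = 1.77e-05) and was lower at day 15 than at day 3 (log2 difference -0.16, SE 0.0274, adjusted p = 0.000801). GENCODE lists 8 FDPS pseudogenes, so its count may hold reads of copies. MVK, the mevalonate kinase, had 33.4, 32.2 and 30.1 CPM in control libraries, 34.1, 33.2 and 35.9 CPM at day 3 and 31.1, 30.5 and 26.7 CPM at day 15, with overlap between day 3 and control. It was called in 1 comparison, lower at day 15 than at day 3 (log2 difference -0.23, SE 0.0531, adjusted p = 0.0139).

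The other 4 mevalonate enzymes were not called in MDA-MB-231. At day 3 the log2 fold was 0.13 for GGPS1 (geranylgeranyl diphosphate synthase, adjusted p = 0.0746), 0.10 for PMVK and 0.04 for MVD, the kinase and decarboxylase that follow MVK. ACAT2, the thiolase at the entry, had the smallest of these 4 folds, at 165 ± 1.46 CPM at day 3 against 162 ± 1.68 CPM in control (mean ± SD, n = 3 each). HMGCS1 at day 15 against day 3 was lost when any 1 library of those groups was left out (adjusted p 0.0636 to 0.199), and MVK when day 3 replicate 1 or 3 or day 15 replicate 3 was left out (0.0592 to 0.0963).

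The bases before the starts of HMGCS1 and FDPS are shown because SREBPs are known to act beside the factor NF-Y, which binds the letters CCAAT. Capitals mark CCAAT on either strand (read ATTGG on the opposite one), CACGTG (the E-box) and TCACNCCAC (a classical sterol regulatory element, either strand). Windows are 250 bases before a RefSeq start on GRCh38.p14, 5′ to 3′ on the gene's strand. HMGCS1 (chr5:43313413-43313662, minus strand, the one of its 2 windows farther upstream) holds CCAAT 155 and 100 bases before the start, and FDPS (chr1:155308616-155308865, plus strand) 176, 122 and 51 bases before it. The other HMGCS1 window, not shown, holds no match of any of these letters.
HMGCS1: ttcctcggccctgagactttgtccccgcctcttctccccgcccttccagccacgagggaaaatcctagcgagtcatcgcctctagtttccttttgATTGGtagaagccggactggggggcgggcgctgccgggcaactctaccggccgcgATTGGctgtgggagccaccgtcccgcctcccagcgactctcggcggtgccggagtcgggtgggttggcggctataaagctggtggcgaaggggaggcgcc
FDPS: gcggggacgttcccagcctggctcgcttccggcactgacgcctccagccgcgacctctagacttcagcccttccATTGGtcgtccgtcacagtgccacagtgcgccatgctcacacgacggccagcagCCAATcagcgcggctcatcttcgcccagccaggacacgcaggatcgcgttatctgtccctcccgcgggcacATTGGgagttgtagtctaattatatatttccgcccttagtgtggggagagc

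Among the sterol enzymes, LSS, which closes squalene epoxide into lanosterol, had 134, 130.1 and 122.5 CPM in control libraries, 145, 147.5 and 143 CPM at day 3 and 126, 127 and 117 CPM at day 15 in MDA-MB-231. Its day 3 libraries were above all 6 others, and day 15 overlapped control. LSS rose at day 3 (log2 fold 0.17, SE 0.0337, adjusted p = 0.00426) and was lower at day 15 than at day 3 (log2 difference -0.24, SE 0.0337, adjusted p = 0.000123). MSMO1, an oxidase that strips methyl groups from sterols, had 254.5, 248 and 254 CPM in control libraries, 278, 280.3 and 276 CPM at day 3 and 258, 257 and 251 CPM at day 15, again with day 3 above every other library. Its day 3 log2 fold was 0.14 (SE 0.0236, adjusted p = 0.000557), and day 15 minus day 3 was -0.12 (SE 0.0236, adjusted p = 0.0032). FDFT1, the squalene synthase at the branch into sterols, had 248, 249.8 and 246 CPM in control libraries, 274, 269 and 268 CPM at day 3 and 258, 255 and 253 CPM at day 15. Control, day 15 and day 3 lay in that order without overlap. FDFT1 rose at day 3 (log2 fold 0.12, SE 0.0232, adjusted p = 0.00201) and was lower at day 15 than at day 3 (log2 difference -0.08, SE 0.0232, adjusted p = 0.0351). DHCR7, which makes the last reduction of one of the routes to cholesterol, had 151, 144 and 138 CPM in control libraries, 159, 158 and 154 CPM at day 3 and 141, 138 and 135 CPM at day 15, with day 3 above the rest. Its day 3 log2 fold was 0.12 (SE 0.0305, adjusted p = 0.0351), and day 15 minus day 3 was -0.18 (SE 0.0305, adjusted p = 0.000801).

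Leaving out 1 library ended some of these calls. DHCR7 at day 3 was not called without control replicate 2 or 3 or any day 3 library (adjusted p 0.0605 to 0.181), and LSS not without day 3 replicate 2 (0.0609). FDFT1 at day 15 against day 3 was not called in 5 of the 6 omissions from those groups (0.0629 to 0.184). The other 8 sterol enzymes were not called in MDA-MB-231, with day 3 log2 folds between 0.02 (LBR) and 0.21 (TM7SF2), both sterol reductases. In CYP51A1 (the lanosterol demethylase), SC5D (a desaturase) and HSD17B7 (a ketoreductase) all day 3 libraries were above all controls, with log2 folds of 0.07, 0.11 and 0.11. SQLE, the squalene epoxidase and a step that limits flux, stood at 56 ± 1.38 CPM at day 3 and 56.4 ± 2.34 CPM at day 15, against 52.8 ± 3.12 CPM in control (mean ± SD, n = 3 each). NSDHL, a sterol dehydrogenase, and EBP, an isomerase, had day 3 log2 folds of 0.04 and 0.03. Summed over the 20 enzymes of both stages, control libraries of MDA-MB-231 held 2527 to 2532 CPM, day 3 libraries 2730 to 2748 and day 15 libraries 2556 to 2589.

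MSMO1 is shown because its window held the letters CCAAT 4 times, the most among windows of the genes called at day 3 (chr4:165327419-165327668, plus strand), 185, 139, 76 and 34 bases before the start.
MSMO1: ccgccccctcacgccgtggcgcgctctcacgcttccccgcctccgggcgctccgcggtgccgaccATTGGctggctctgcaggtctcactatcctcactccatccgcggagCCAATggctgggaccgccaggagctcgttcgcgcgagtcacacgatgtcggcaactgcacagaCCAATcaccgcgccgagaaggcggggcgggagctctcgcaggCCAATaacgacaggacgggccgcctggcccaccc

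In the SREBP control group, INSIG1, the sterol-sensing anchor of SCAP and itself a known SREBP target, gave the largest day 3 log2 fold of the 30 members. It had 294, 295.5 and 291 CPM in control libraries, 369.5, 362 and 358 CPM at day 3 and 309, 315.5 and 301 CPM at day 15 in MDA-MB-231, with the 3 groups apart from each other. INSIG1 rose by a log2 fold of 0.31 (SE 0.0237, adjusted p = 1.26e-09) at day 3. Day 15 against control was not called (0.07, adjusted p = 0.0571), and day 15 was lower than day 3 (log2 difference -0.23, SE 0.0237, adjusted p = 4.62e-07). SREBF1 had 63.8, 59.6 and 59.9 CPM in control libraries, 73.1, 70.9 and 72.7 CPM at day 3 and 55, 57.8 and 51.6 CPM at day 15. Its day 3 libraries were the highest and its day 15 libraries the lowest, with no overlap among the groups. SREBF1 rose by a log2 fold of 0.24 (SE 0.0388, adjusted p = 0.000334) at day 3, fell by 0.16 (SE 0.0388, adjusted p = 0.0123) on the log2 scale at day 15 against control, and was lower at day 15 than at day 3 (log2 difference -0.40, SE 0.0388, adjusted p = 2.73e-07). SREBF1 thus was the one member called higher at day 3 and lower at day 15 against the same controls. Its day 15 call against control was not made when control replicate 1 was left out (adjusted p = 0.103) or day 15 replicate 3 (0.0796).

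SREBF2, the SREBP most tied to cholesterol genes, had 162.5, 155 and 155 CPM in control libraries, 170.1, 168 and 166.5 CPM at day 3 and 156, 153.5 and 149.6 CPM at day 15. Day 3 was above both other groups, which overlapped each other. The day 3 log2 fold of 0.09 was not called (adjusted p = 0.075), and day 15 was lower than day 3 (log2 difference -0.14, SE 0.0273, adjusted p = 0.00447), a call lost without day 3 replicate 1 (0.0536). INSIG2, the second anchor, and SCAP were not called, with day 3 log2 folds of 0.08 and -0.02. SCAP was the 1 member of 30 with a value below 0 at day 3. The windows of INSIG1 (chr7:155297628-155297877, plus strand) and SREBF2 (chr22:41832855-41833104, plus strand) are shown for their motifs. INSIG1 held CCAAT 170 and the E-box 55 bases before the start. Of the 27 members with a window, SREBF2 was the 1 with TCACNCCAC, 133 bases before the start, next to CCAAT at 106.
INSIG1: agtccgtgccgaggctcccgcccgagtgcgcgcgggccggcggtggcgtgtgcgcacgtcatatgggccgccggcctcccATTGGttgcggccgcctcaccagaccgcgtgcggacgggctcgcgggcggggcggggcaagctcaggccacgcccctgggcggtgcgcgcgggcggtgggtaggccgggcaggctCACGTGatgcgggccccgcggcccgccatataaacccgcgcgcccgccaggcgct
SREBF2: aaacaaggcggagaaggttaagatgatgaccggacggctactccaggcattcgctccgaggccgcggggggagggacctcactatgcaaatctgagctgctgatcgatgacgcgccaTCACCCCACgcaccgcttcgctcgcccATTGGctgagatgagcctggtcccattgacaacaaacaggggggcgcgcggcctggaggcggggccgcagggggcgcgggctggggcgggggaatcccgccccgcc

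**Figure D2:**
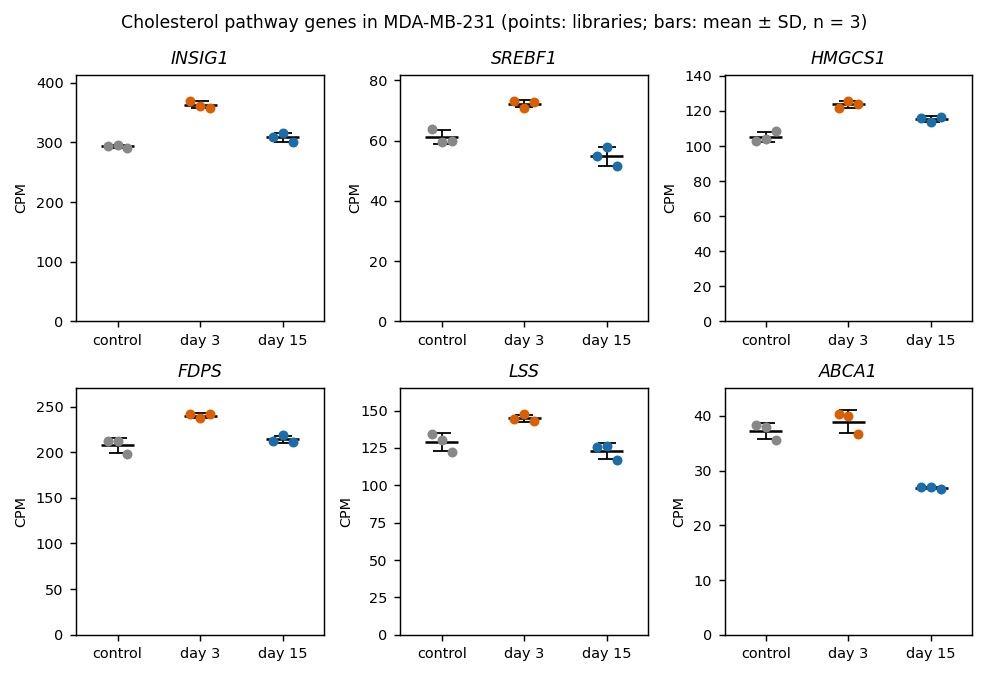
CPM of 6 genes in the 9 MDA-MB-231 libraries (points), with the mean and SD of each group of 3 (bars), on axes that start at 0. INSIG1, SREBF1, HMGCS1, FDPS and LSS are highest at day 3, and ABCA1 is lowest at day 15, at 26.7 to 27.0 CPM.

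Among the genes of uptake, transport and storage, ABCA1 had the largest change in MDA-MB-231. ABCA1, the pump that loads cholesterol onto lipoprotein particles outside the cell, had 38.4, 37.9 and 35.6 CPM in control libraries, 40.3, 40 and 36.6 CPM at day 3 and 27, 26.9 and 26.7 CPM at day 15 in MDA-MB-231. Control and day 3 overlapped, and all day 15 libraries were lower. ABCA1 fell by 0.47 (SE 0.0448, adjusted p = 4.14e-08) on the log2 scale at day 15 against control, and was lower at day 15 than at day 3 (log2 difference -0.53, SE 0.0448, adjusted p = 1.94e-08). Both calls held in every omission of 1 library and in the fit without the variance trend. At day 3 its log2 fold of 0.06 was not called (adjusted p = 0.586). MYLIP, a ubiquitin ligase that sends lipoprotein receptors to breakdown, had 19.9, 20.6 and 20.7 CPM in control libraries, 20.6, 20.6 and 20.9 CPM at day 3 and 18, 19.1 and 18.1 CPM at day 15, with day 15 below the rest. It was called lower at day 15 than at day 3 (log2 difference -0.17, SE 0.0505, adjusted p = 0.0473), a call lost in 5 of 6 omissions from those groups (0.109 to 0.147), while day 15 against control was not called (-0.15, adjusted p = 0.0696).

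STARD4, a carrier of sterols between membranes, had 122, 122 and 121 CPM in control libraries, 134, 134 and 138 CPM at day 3 and 124, 133 and 117 CPM at day 15 in MDA-MB-231, with day 3 above every other library. It rose at day 3 (log2 fold 0.15, SE 0.0339, adjusted p = 0.0119) and was lower at day 15 than at day 3 (log2 difference -0.12, SE 0.0339, adjusted p = 0.036). The day 3 call was lost without control replicate 2 or any day 3 library (adjusted p 0.0573 to 0.0865), and that against day 3 in 5 of 6 omissions (0.111 to 0.215). SOAT1, which stores cholesterol as esters, and NPC1, which exports it from lysosomes, were not called, with day 3 log2 folds of 0.06 and 0.05. The ABCA1 window (chr9:104928156-104928405, minus strand) is shown as that of the member with the largest fall. It held the E-box 147 bases before the start and no CCAAT or TCACNCCAC.
ABCA1: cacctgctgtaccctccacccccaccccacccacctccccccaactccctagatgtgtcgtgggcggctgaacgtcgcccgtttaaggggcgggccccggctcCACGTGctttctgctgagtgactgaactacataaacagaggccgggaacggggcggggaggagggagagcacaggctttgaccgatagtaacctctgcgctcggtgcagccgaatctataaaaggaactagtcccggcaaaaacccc

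Over all windows, 27 of the 30 members had 35 RefSeq starts in the promoter table, and ACAT2, FDFT1 and SQLE had none. CCAAT lay in 21 of these 35 windows (60%), against 32% of 35116 windows of all genes and 33.6% of 14235 windows of genes listed in both tables. The E-box lay in 5 member windows (14.3%), against 6.34% and 8.31%. These belong to 4 genes, because the pair of SC5D windows overlap and share one match. TCACNCCAC lay in 1 member window (2.86%), against 0.883% and 0.843%, so that share rests on 1 match. These are matches of letters, and binding was not measured. GENCODE places the outermost start of each of the 6 genes shown inside its window, so part of each run is transcribed in that annotation.

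No member was called at day 3 in T47D in the fit of all 9 libraries, whose shared spread includes day 15 replicate 2. At day 3 against control, 0 of 30 members were called higher, where 1.16% of all genes were, and 0 lower, where 0.718% of all genes were, by limma. At an unadjusted p under 0.05 there were 5 (HMGCS1, CYP51A1, LBR, INSIG1 and SOAT1), all with values below 0, where 10.1% of all genes passed in either direction. The median log2 fold was -0.04 over the members and -0.0026 over all genes, and 22 of 30 values were below 0, while 48.6% of all genes had a value above 0. In 12 members the day 3 libraries all lay below control, against 11.9% of all genes, and in 2 (TM7SF2 and MYLIP) above it, against 10.02%. A fit on only these 2 groups, without the day 15 libraries, called TM7SF2 higher and HMGCS1, LSS, CYP51A1, LBR and SOAT1 lower. These were 6 of 30, where that fit called 6.24% of all genes in either direction. Summed over the 20 enzymes, control libraries of T47D held 3389 to 3431 CPM, day 3 libraries 3292 to 3318 and day 15 libraries 3397 to 3441.

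At day 15 in T47D, HMGCS1, CYP51A1 and SOAT1 fell against control. These 3 of 30 members lie near the background of 6.23% of all genes called lower, and 0 were called higher, where 5% of all genes were. Against day 3, INSIG1 and LBR were called higher at day 15 (2 of 30, against 2.23% of all genes) and 0 lower (against 3.35%). Without the variance trend, CYP51A1 was the 1 member called against control, where 7.86% of all genes were called in either direction. Against day 3, 0 members were called without the trend. Without replicate 2 of day 15, the share of all genes called was also higher. There 9 members were lower than control (against 13.7% of all genes) and 3 higher (against 11.3%). LBR, INSIG1, IDI1 and SQLE were higher than at day 3 (4 of 30, against 7.74% of all genes), and LSS and MVD lower (2 of 30, against 9.89%). The sum of the 2 fibroblast markers listed in T47D (COL1A1 and COL3A1, of 6) was lower alongside, at 24.7 to 27.3 CPM at day 15 against 34.5 to 40.1 CPM in control. So was that of CD44 and FN1, the 2 MDA-MB-231 identity markers of 8 listed in T47D, at 29.05 to 30.04 CPM in day 3 libraries and 23.6 to 27.7 in day 15 libraries, against 31.1 to 34.6 CPM in control. The part of these markers in the results was not tested.

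CYP51A1 had 193, 183 and 180.3 CPM in control libraries, 172, 175 and 171 CPM at day 3 and 158, 164 and 170.3 CPM at day 15 in T47D. The 3 groups came in falling order without overlap. It fell by 0.18 (SE 0.0367, adjusted p = 0.00603) on the log2 scale at day 15 against control, and by 0.18 without replicate 2 (adjusted p = 0.000211). Its exons overlap 2 other coding genes on the same strand in GENCODE, over 2943 of 3584 bases, and 3 pseudogenes are listed. How reads shared by them were counted is not given in the sources used here. HMGCS1 had 175, 165 and 165 CPM in control libraries, 158, 156 and 155 CPM at day 3 and 153, 149 and 161 CPM at day 15, with both induced groups below control. It fell by 0.13 (SE 0.037, adjusted p = 0.038) on the log2 scale at day 15 against control, and by 0.10 without replicate 2 (adjusted p = 0.0198). SOAT1 had 90.5, 88.7 and 90.3 CPM in control libraries, 84.3, 84.4 and 78.8 CPM at day 3 and 80, 82.7 and 81.9 CPM at day 15, again with both induced groups below control. It fell by 0.14 (SE 0.0374, adjusted p = 0.0267) on the log2 scale at day 15 against control, and by 0.15 without replicate 2 (adjusted p = 0.00294). The HMGCS1 and SOAT1 calls were lost without any 1 control library or without day 15 replicate 1 (adjusted p 0.0605 to 0.169), and the CYP51A1 call held in every omission.

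LBR had 188, 179.9 and 179.9 CPM in control libraries, 168.5, 177 and 168 CPM at day 3 and 184, 196 and 198 CPM at day 15, and the day 15 libraries were all above those of day 3. It was higher at day 15 than at day 3 (log2 difference 0.17, SE 0.0374, adjusted p = 0.0138), with 0.16 on that scale without replicate 2 (adjusted p = 0.000953). INSIG1 had 107, 108 and 103 CPM in control libraries, 103, 100.1 and 99.4 CPM at day 3 and 108, 114 and 111 CPM at day 15. Its day 3 libraries were the lowest. INSIG1 was higher at day 15 than at day 3 (log2 difference 0.14, SE 0.0354, adjusted p = 0.0341), with 0.12 without replicate 2 (adjusted p = 0.0134). The LBR call was lost without day 3 replicate 1 (0.0901) or 3 (0.0811). The INSIG1 call was lost without any 1 day 3 library or day 15 replicate 3 (0.0522 to 0.147).

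Replicate 2 of day 15 stood above its group mates in SREBF1, LSS and MVD of T47D. SREBF1 had 100.5, 130.1 and 90.3 CPM in the day 15 libraries, against 94.9, 92.6 and 104 CPM in control, so that replicate 2 alone was above the control range. LSS had 91.8, 112 and 79.6 CPM at day 15, against 110.1, 107.5 and 112 CPM in control, with replicates 1 and 3 below and replicate 2 inside the control range. MVD had 58, 72.4 and 52.8 CPM at day 15, against 61, 62.1 and 66 CPM in control, with replicate 2 above and the others below. Without replicate 2, the members called lower than control were also LSS (log2 fold -0.36, adjusted p = 4.88e-08), MVD (-0.19, 0.00150), DHCR7 (-0.14, 0.000722), SREBF2 (-0.12, 0.00788), SCAP (-0.16, 0.00814) and NPC1 (-0.11, 0.0362). Those called higher were SQLE (0.17, adjusted p = 4.14e-05), IDI1 (0.10, 0.00819) and MSMO1 (0.10, 0.0273). G0S2 itself was at 993 CPM in replicate 2, against 766 and 736 CPM in replicates 1 and 3, and its part in these differences was not tested.

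**Figure D3:**
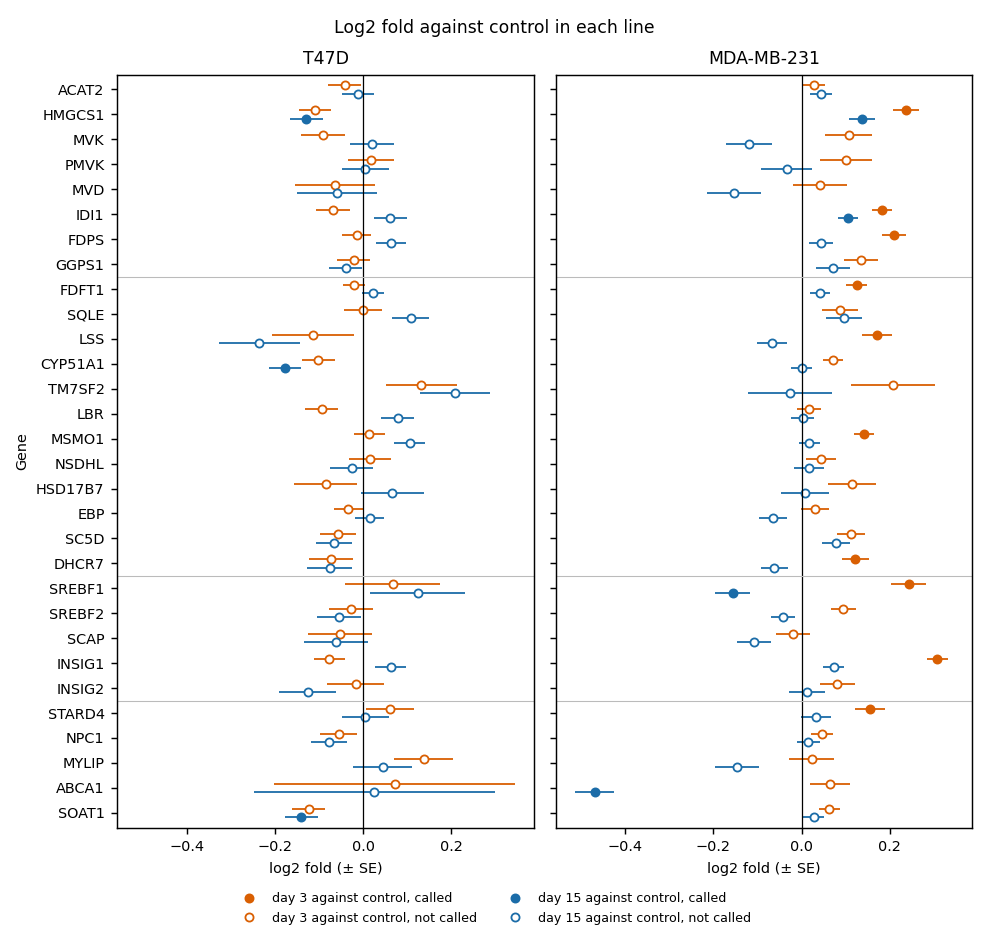
Log2 fold ± SE against control for the 30 genes at day 3 (orange) and day 15 (blue) in T47D (left) and MDA-MB-231 (right), with filled points for called genes. In MDA-MB-231, 10 points at day 3 are filled and all lie right of 0, and in T47D no day 3 point is filled.

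The difference between the lines was tested on the response itself, T47D log2 fold minus MDA-MB-231 log2 fold, in one limma fit of 18 libraries and the 12666 genes in both tables. For the day 3 response, 7 of 30 members were lower in T47D, where 1.05% of genes were, and 0 higher, where 1.41% were. They were INSIG1, HMGCS1, IDI1, FDPS, FDFT1, SOAT1 and CYP51A1, with at least 1 from each role. For the day 15 response, 3 members were lower in T47D (HMGCS1, CYP51A1 and SOAT1), near the background of 5.37% of genes, and 0 were higher, where 4.07% were. Without T47D day 15 replicate 2, LSS and NPC1 were called as well (5 of 30, against 6.13% of genes), and 0 were higher (against 4.59%). The median difference in the day 3 response was -0.13 over the members and -0.0070 over all genes.

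INSIG1 had a day 3 log2 fold of -0.08 in T47D and 0.31 in MDA-MB-231, a difference of -0.38 (SE 0.0392, adjusted p = 6.19e-07), with a 95% interval of -0.47 to -0.30. HMGCS1 had -0.11 in T47D and 0.24 in MDA-MB-231, a difference of -0.35 (SE 0.0455, adjusted p = 3.00e-05). For both genes the day 3 libraries lay below control in T47D and above control in MDA-MB-231. IDI1 had -0.07 in T47D and 0.18 in MDA-MB-231, a difference of -0.25 (SE 0.0437, adjusted p = 0.00111). FDPS had -0.01 in T47D and 0.21 in MDA-MB-231, a difference of -0.22 (SE 0.043, adjusted p = 0.00334). FDFT1 had -0.02 in T47D and 0.12 in MDA-MB-231, a difference of -0.145 (SE 0.0293, adjusted p = 0.00535). For these 3 enzymes the T47D value was not called and the MDA-MB-231 value was. With all 9 libraries of a line in the fit, SOAT1 and CYP51A1 were called in neither line at day 3. Their responses differed, by -0.19 (SE 0.041, adjusted p = 0.0119) for SOAT1 and -0.17 (SE 0.0418, adjusted p = 0.026) for CYP51A1. The CYP51A1 difference was lost in 8 of 12 omissions of 1 library (adjusted p 0.0557 to 0.0924).

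At day 15 HMGCS1 had a log2 fold of -0.13 in T47D and 0.14 in MDA-MB-231, called in opposite directions, a difference of -0.265 (SE 0.0455, adjusted p = 0.000482). The T47D call was lost in 5 other settings, among them without the variance trend (adjusted p = 0.118) and with the medians of the libraries set equal (0.0622), and the MDA-MB-231 call without the variance trend (0.0805). The difference itself stayed called without the trend (0.00355). The difference was -0.18 (SE 0.0418, adjusted p = 0.00863) for CYP51A1 and -0.17 (SE 0.041, adjusted p = 0.0116) for SOAT1, which were lower in T47D and not called in MDA-MB-231. ABCA1, called lower at day 15 in MDA-MB-231, differed from T47D by 0.49 with a 95% interval of -0.03 to 1.02 (adjusted p = 0.246). This ABCA1 difference was called without T47D control replicate 1 (0.74, adjusted p = 0.0355). It was also called with 1 CPM added before the log (0.45, adjusted p = 0.0129), which shrinks folds of low genes. T47D had 17 to 34 reads of ABCA1 per library, so a change of the size seen in MDA-MB-231 was not detectable within T47D at this depth. SREBF1 in turn differed by 0.28 with an interval of 0.02 to 0.54 (adjusted p = 0.179). Without T47D day 15 replicate 3 the SREBF1 difference was called (0.39, adjusted p = 0.0171), as was that of SC5D (-0.19, adjusted p = 0.0141). For the 23 members not called in the day 3 response, a p above the threshold does not show that the lines responded alike.

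**Figure D4:**
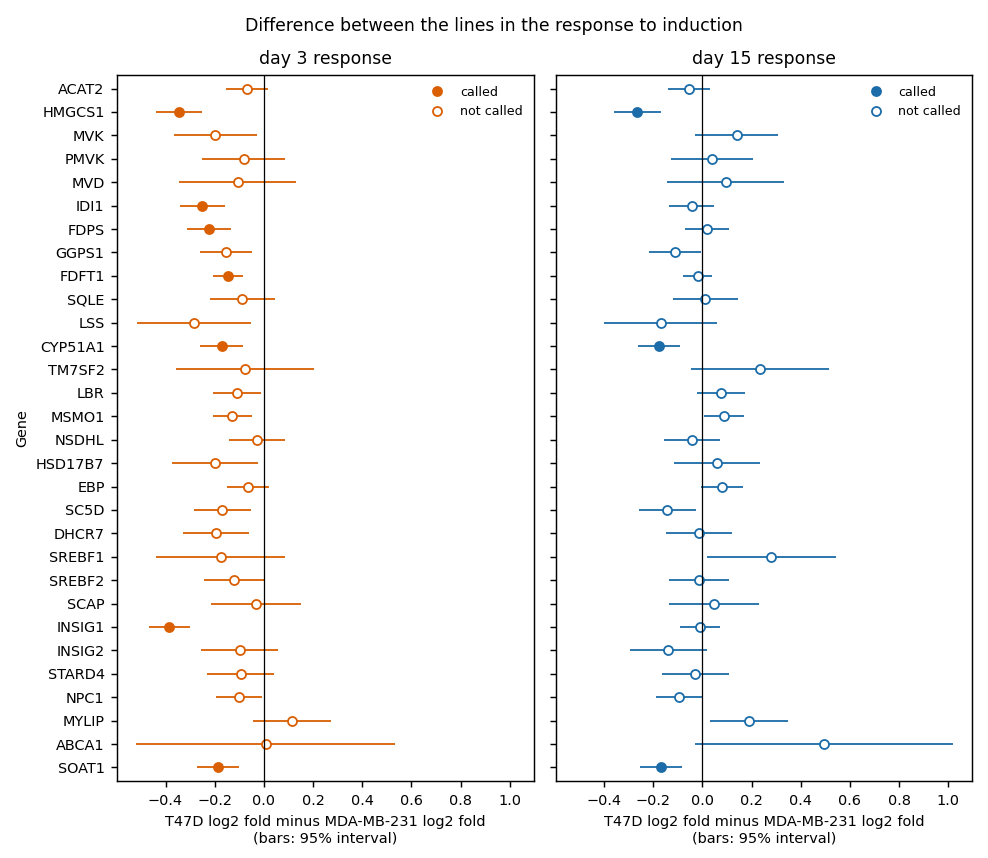
T47D log2 fold minus MDA-MB-231 log2 fold with its 95% interval for the 30 genes, for the day 3 response (left) and the day 15 response (right), with filled points for called genes. At day 3, 28 of 30 points lie left of 0 and 7 are filled, and at day 15, 3 are filled.

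In control cells, 6 members stood over 2-fold higher and 6 over 2-fold lower in T47D than in MDA-MB-231. The tables were normalized separately, so these levels are a description with no test. TM7SF2 averaged 102 ± 2.9 CPM in T47D and 6.62 ± 0.489 CPM in MDA-MB-231 control cells (SD, n = 3 each), a ratio of 15.4. SQLE (ratio 4.16), PMVK (3.90), MVD (3.69), GGPS1 (3.22) and FDFT1 (2.47) were the other 5 over 2-fold higher in T47D, and all 6 are enzymes. ABCA1 averaged 0.551 ± 0.214 CPM in T47D and 37.3 ± 1.5 CPM in MDA-MB-231. STARD4, NPC1, SOAT1, INSIG1 and INSIG2 were the other 5 over 2-fold lower in T47D, and all 6 belong to transport or SREBP control. The library ranges of the lines overlapped in FDPS alone.

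Per kilobase of exon, which allows genes to be compared, FDFT1, IDI1 and EBP were highest in T47D controls, at 118, 85.8 and 57.2 CPM per kb. EBP differed there by less than its SD of 1.51 from FDPS, DHCR7 and PMVK, at 56.9, 56.2 and 55.8 CPM per kb. MSMO1, CYP51A1 and INSIG1 were highest in MDA-MB-231 controls, at 87.2, 86.9 and 80.4 CPM per kb. MSMO1 and CYP51A1 differed there by less than their SDs of 1.26 and 1.25. The lowest were ABCA1 in T47D, at 0.0485 CPM per kb, and TM7SF2 in MDA-MB-231, at 1.94 CPM per kb. LBR, which shares the reductase step with TM7SF2, stood at 34.8 CPM per kb in T47D and 56.2 CPM per kb in MDA-MB-231. ACAT2, GGPS1, CYP51A1, MVK, SREBF1, NPC1 and TM7SF2 share exon bases with other coding genes, so their levels may hold or lack shared reads.

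**Figure D5:**
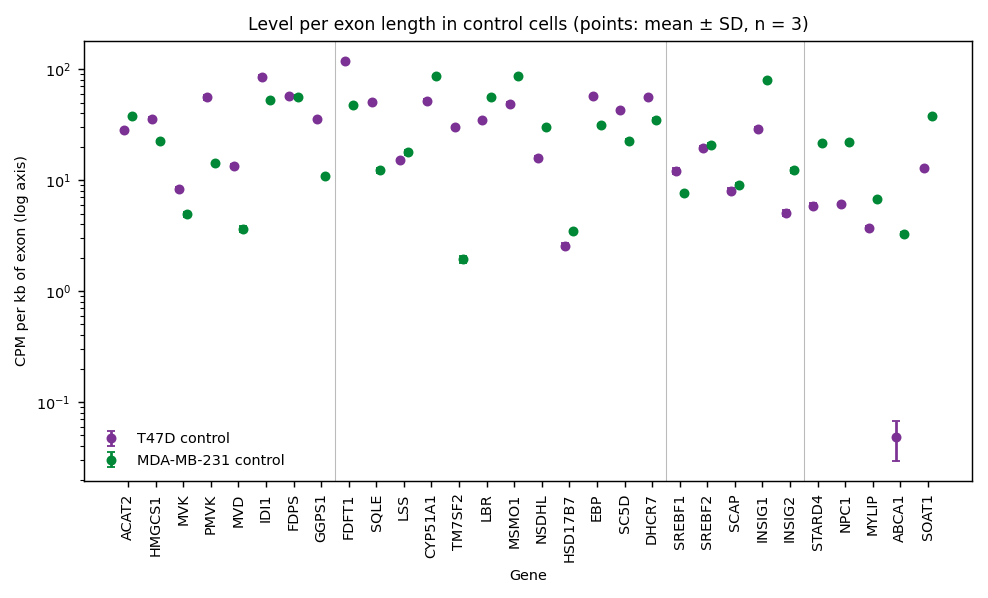
CPM per kb of exon (log axis) in control cells of T47D (purple) and MDA-MB-231 (green), as the mean ± SD of 3 libraries, for the 30 genes in pathway order. ABCA1 in T47D, at 0.0485 CPM per kb, is the lowest point, and TM7SF2, SQLE, PMVK and MVD stand higher in T47D than in MDA-MB-231.

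Other genes of the pathway were read from a pair of lists. Of 29 names in sterol transport and SREBP control (C12orf49 is an older name of SPRING1), 27 were listed in T47D and 28 in MDA-MB-231. At day 3, 0 of them were called in either line by limma, where 1.88% of all genes were in T47D and 1.77% in MDA-MB-231. At day 15 against control, 1 was higher and 4 lower in T47D, where 5% and 6.23% of all genes were. Without replicate 2 these were 1 and 7, where 11.3% and 13.7% of all genes were. In MDA-MB-231, 0 were higher and 2 lower, where 3.42% and 4.77% of all genes were. GRAMD1B, a carrier of sterols from the plasma membrane, fell by 0.22 on the log2 scale (adjusted p = 0.00805), to 24.8 ± 1.08 CPM at day 15 in MDA-MB-231 against 28.9 ± 1.20 CPM in control (SD, n = 3 each). In T47D, NPC2, the lysosomal partner of NPC1, fell by 0.30 (adjusted p = 0.000205), to 74.8 ± 3.71 CPM at day 15 against 91.9 ± 1.58 CPM in control. SPRING1, which supports SREBP processing, fell by 0.18 (adjusted p = 0.00499), to 100.7 ± 3.91 CPM against 114 ± 2.36 CPM. LRP1, an endocytic receptor, rose by 0.38 (adjusted p = 0.0138), to 6.02 ± 0.458 CPM against 4.604 ± 0.167 CPM. These 3 T47D genes were also called without replicate 2, with adjusted p of 1.32e-06 for NPC2, 4.45e-05 for SPRING1 and 0.0158 for LRP1. Against day 3, 0 were higher and 1 lower at day 15 in T47D (NPC2), where 2.23% and 3.35% of all genes were. Without replicate 2 these were 0 and 3, where 7.74% and 9.89% of all genes were. For MDA-MB-231 against day 3, 2 were higher (CAV1 and NCEH1) and 2 lower (LIPA and MBTPS2), where 2.47% and 2.86% of all genes were. In the difference between lines, NPC2 was lower in T47D at day 3 (-0.19, adjusted p = 0.0255), where 1.05% of genes were. At day 15, 2 were higher in T47D (LRP1 and GRAMD1B) and 2 lower (NPC2 and OSBPL9), where 4.07% and 5.37% of genes were. Without T47D day 15 replicate 2 the OSBPL9 difference was not called. The list's median log2 fold at day 3 was -0.02 in T47D and 0.02 in MDA-MB-231.

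Of 17 genes of the isoprenoid branch, which makes dolichol, ubiquinone and protein lipid anchors, 0 were called in any MDA-MB-231 comparison, at day 3 in T47D or at day 15 against day 3 in T47D. Over all genes, 1.77% to 8.20% were called in the MDA-MB-231 comparisons and 1.88% at day 3 in T47D. At day 15 against day 3 in T47D, 2.23% were higher and 3.35% lower. Without replicate 2, COQ2 and DOLK were lower at day 15 than at day 3 in T47D (2 of 17, against 9.89% of all genes). At day 15 against control in T47D, 3 fell, where 6.23% of all genes did (4 without replicate 2, where 13.7% did). COQ2 of ubiquinone synthesis fell by 0.21 on the log2 scale (adjusted p = 0.0337), DHDDS of dolichol synthesis by 0.21 (0.00873) and PCYOX1, which breaks down prenylated cysteines, by 0.15 (0.00675). In the difference between lines 0 were called at day 3, where 1.41% of genes were higher and 1.05% lower in T47D. COQ2 and PCYOX1 were lower in T47D at day 15 (2 of 17, where 5.37% of genes were). The list's median log2 fold at day 3 was -0.03 in T47D and 0.01 in MDA-MB-231.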

How the data were processed

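RNA was sequenced from 18 libraries of 2 cell lines in 6 groups of 3, which the series' text calls biological triplicates without saying what was separate. Per the submitters' processing notes, reads were aligned with STAR, counted per gene with featureCounts and processed with limma. The notes name GRCh38.p13 as the build. The authors deposited log2 CPM per gene and library in 1 table a line, each normalized separately. The unit was read from the values: in every library 100% of values gave whole reads within 0.1 of a whole number, after a pseudocount of about 3 reads, scaled to library size, was taken off. Levels in the text are CPM from those reads. The scaling, low-count filter, gene annotation and strand setting of the counting have no statement in the sources used here, so reads of overlapping or antisense genes cannot be told apart.

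The deposited log2 values of all genes in the 9 libraries of a line entered one limma 3.58.1 fit (R 4.3.3, statmod 1.5.0), with group means and with trend and robust moderation, and Benjamini-Hochberg adjustment over the table. The difference between lines used 18 libraries and 12666 genes. Log2 folds are differences of log2(CPM + pseudocount), which understates changes of low genes. The scripts were tested on simulated data. Exon lengths, loci and overlaps are from GENCODE 29 (GRCh38), and promoter windows from RefSeq (GRCh38.p14). Tables were read with Python 3.11.15.

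Values per library are printed for each member called in a comparison, and other members are given by group values, folds or counts. Of each list of other genes, up to 4 members called against control, by size of fold, are given with their folds. Some other called genes are named beside the count of their comparison. The members and the lists were chosen with earlier results of these data known, and no pattern is independent support for them. The series' design text speaks of parental and Aza-resistant lines, unlike the sample labels, which were followed.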

Additional observations from a re-analysis of the deposited data

Results flagged for a closer look

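The response to induction differed between the lines, by a test of the difference itself (T47D log2 fold minus MDA-MB-231 log2 fold, limma, adjusted over the 12666 genes in both tables), in 7 members at day 3 and 3 at day 15, all lower in T47D. Over all genes, 1.05% were lower in T47D at day 3 and 5.37% at day 15, so that the 3 of 30 at day 15 lie near the background.

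At day 3 INSIG1, which holds SCAP back, differed by -0.38 (SE 0.0392, adjusted p = 6.19e-07). HMGCS1 at the head of the mevalonate pathway differed by -0.35 (SE 0.0455, adjusted p = 3.00e-05), IDI1 by -0.25 (SE 0.0437, adjusted p = 0.00111) and FDPS by -0.22 (SE 0.043, adjusted p = 0.00334). FDFT1, the squalene synthase, differed by -0.145 (SE 0.0293, adjusted p = 0.00535), SOAT1 by -0.19 (SE 0.041, adjusted p = 0.0119) and CYP51A1 by -0.17 (SE 0.0418, adjusted p = 0.026). In all 7 the day 3 value was below 0 in T47D and above 0 in MDA-MB-231. With all 9 libraries of the line in the fit, none of the 7 was called in T47D. The T47D values of FDPS (-0.01, SE 0.0332) and FDFT1 (-0.02, SE 0.0255) lay within their SE of 0.

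At day 15 HMGCS1 differed by -0.265 (SE 0.0455, adjusted p = 0.000482), CYP51A1 by -0.18 (SE 0.0418, adjusted p = 0.00863) and SOAT1 by -0.17 (SE 0.041, adjusted p = 0.0116). T47D day 15 replicate 2, which stood apart from its group mates, enters these 3 values, and without it 5 members differed, LSS (-0.30, adjusted p = 0.00174) and NPC1 (-0.13, adjusted p = 0.0497) among them.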

How the results depend on the processing

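Results are counts of members called higher or lower. Without the variance trend, MDA-MB-231 day 3 gave 3 higher, day 15 against control 0 higher and 1 lower, and day 15 against day 3 3 lower, while T47D day 15 gave 1 lower against control and 0 higher against day 3. With only the 2 groups compared, T47D gave 1 higher and 5 lower at day 3, 1 lower at day 15, and 0 higher at day 15 against day 3. Quantile normalization gave 2 higher at T47D day 15. At MDA-MB-231 day 3, 59 of all genes were called without the trend, against 253 with it. In that line, day 15 against control gave 209, against 1173, and day 15 against day 3 gave 29, against 763. T47D day 15 against control gave 1161, against 1659. The cause of these changes was not tested.

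Leaving out 1 library gave, in MDA-MB-231, 7 to 11 higher and 0 lower at day 3, 2 to 4 higher and 1 to 5 lower at day 15, and 0 higher and 7 to 14 lower at day 15 against day 3, while all genes called ranged over 119 to 259, 457 to 1897 and 124 to 1664. In T47D it gave 0 in both directions at day 3, 0 to 3 higher and 1 to 9 lower at day 15, and 0 to 4 higher and 0 to 2 lower at day 15 against day 3, with 182 to 214, 930 to 3705 and 403 to 2604 of all genes. Only libraries of the groups compared were left out. T47D day 15 replicate 2 thus stayed in the spread of every T47D day 3 fit, and its effect on that 0 was not tested by these omissions. The fit of only the 2 groups, which held no day 15 library, called 921 of all genes at T47D day 3, against 277. The difference between lines stayed at 6 to 7 members at day 3, with replicate 2 in every fit, and 3 to 5 at day 15. Over all settings, 117 of 3897 folds changed sign, in 26 members. Of these, 116 were called neither with all libraries nor under the alternative, such as SREBF1 at T47D day 15 against control (0.12 with all libraries, -0.03 without day 15 replicate 2). The other 1 was MVD at T47D day 15 against day 3, at 0.00 with all libraries and -0.125 without day 15 replicate 2 (adjusted p = 0.0428).

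With the replicate number as a block, MDA-MB-231 day 15 gave 4 higher and 4 lower against control, T47D day 15 gave 1 lower, and T47D day 15 against day 3 gave 1 higher. At MDA-MB-231 day 3 the block gave 14 higher. Over all genes the block called 637 at day 3, 2273 at day 15 and 1788 at day 15 against day 3 in MDA-MB-231, against 253, 1173 and 763 without it. Deviations of same-numbered libraries correlated at -0.0156 to 0.103 in MDA-MB-231 and -0.185 to 0.0362 in T47D, and not every library correlated best with its own number. The libraries were therefore not treated as pairs, and the labels do not say what a number shares.

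An added fit with voom weights on the recovered reads, chosen after seeing the data, a filter on low genes, 1 CPM added before the log and equal medians kept every count within 1.5 times. Over members and settings, 64 folds crossed into the called range with the same sign, 102 crossed out of it and 3730 did neither. The remaining 1, that of MVD given above, became called with its sign changed. Depth limits ABCA1 in T47D (17 to 34 reads per library) most.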
